A study of Mus musculus with 2 samples.

Results

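Transcripts of 38 genes whose RNA is made at set times of the cell cycle were counted in single cells from mouse tumours, in 2 libraries of 1 diet each. They were taken by symbol from the 32285 features of the deposited matrices, and all 38 were found once. Of these, 16 belong to S phase, in which DNA is copied, and 22 to G2 and mitosis (G2/M), in which the cell prepares to divide and divides. The tumours grew from CT26, a mouse colon carcinoma line injected under the skin of BALB/c mice that were 5 weeks old at assignment and had eaten their diet for 1 week before injection. Tumours were taken on day 20, and cells carrying CD45, the surface protein of blood-derived cells, were enriched on magnetic beads and run on a droplet 3′ platform that counts each captured RNA molecule once by a unique molecular identifier (UMI). The library labelled Arg stands against the library labelled Control. The design text names an arginine-deficient diet of equal calories and a normal diet, and the sample labels give the names Arg and Control only. Nothing gives the number of mice behind a library. With 1 library per diet, no difference between the diets was tested, and every interval below is a 95% interval for counting error only.

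A cell that divides first loads the MCM helicase on its DNA, then unwinds and copies it in S phase, and then builds a spindle that separates the chromosomes. S genes are known to be driven by E2F factors. G2/M genes are known to be controlled by the DREAM and MuvB complexes, which bind the cell cycle homology region (CHR), and by NF-Y, which binds CCAAT boxes. In tumours, T cells that meet antigen and macrophages that renew themselves are among the immune cells known to divide, while mature neutrophils do not.

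The promoters of 31 of the 38 genes could be read in the RefSeq promoter table (GRCm38.p6), 13 of S genes and 18 of G2/M genes. The motifs searched in the 250 bases before each start, on both strands, were TTTCCCGC, TTTGGCGC, TTTGCCGC and TTTCGCGC for E2F, TTTGAA and TTCGAA for CHR, and CCAAT. E2F matches on opposite strands can overlap, as they do in the Mcm5 and Mcm6 windows. An E2F match was present in 5 of 13 S genes (38.5%) and 1 of 18 G2/M genes (5.56%), against 2.16% of the 27025 genes of the table. A CHR match was present in 3 of 13 S genes (23.1%) and 7 of 18 G2/M genes (38.9%), against 19.6% of all genes. CCAAT was present in 11 of 13 S genes (84.6%) and 16 of 18 G2/M genes (88.9%), against 37.5% of all genes. Below are the windows of 2 helicase genes with E2F matches and of 2 mitotic genes with CHR and CCAAT matches. They show where the E2F letters of S genes and the CHR and CCAAT letters of G2/M genes stand, 5′ to 3′, with all motif matches in capitals.
Mcm5 (chr8:75109259-75109508, plus strand): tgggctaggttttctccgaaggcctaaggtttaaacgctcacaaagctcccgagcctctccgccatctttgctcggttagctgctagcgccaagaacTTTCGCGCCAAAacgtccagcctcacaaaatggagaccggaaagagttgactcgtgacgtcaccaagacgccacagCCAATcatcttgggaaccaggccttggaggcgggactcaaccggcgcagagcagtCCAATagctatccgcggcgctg
Mcm6 (chr1:128359706-128359955, minus strand): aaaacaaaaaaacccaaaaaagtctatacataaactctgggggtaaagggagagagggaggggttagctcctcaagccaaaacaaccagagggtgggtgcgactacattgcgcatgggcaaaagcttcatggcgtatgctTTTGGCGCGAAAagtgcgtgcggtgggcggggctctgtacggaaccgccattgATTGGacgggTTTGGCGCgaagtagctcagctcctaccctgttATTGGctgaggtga
Ccnb2 (chr9:70421555-70421804, minus strand): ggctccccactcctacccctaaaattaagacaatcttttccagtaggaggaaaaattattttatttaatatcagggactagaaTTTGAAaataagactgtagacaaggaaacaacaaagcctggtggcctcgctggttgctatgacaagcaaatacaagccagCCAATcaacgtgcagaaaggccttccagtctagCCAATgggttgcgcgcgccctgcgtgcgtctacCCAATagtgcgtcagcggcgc
Cdc20 (chr4:118437344-118437593, minus strand): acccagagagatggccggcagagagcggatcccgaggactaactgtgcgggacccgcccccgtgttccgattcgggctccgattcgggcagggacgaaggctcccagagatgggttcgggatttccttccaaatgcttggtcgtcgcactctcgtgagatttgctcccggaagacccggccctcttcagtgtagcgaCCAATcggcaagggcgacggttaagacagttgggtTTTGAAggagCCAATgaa
A match is a run of letters and not a measured binding site. The 38 genes lie on 16 chromosomes. Cenpf, for example, lies on chromosome 1 at 189640606 to 189688086 on the minus strand (GENCODE M21, GRCm38).

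The Arg library held 14540 barcodes and 155927693 UMIs, and the Control library held 14343 barcodes and 191505551 UMIs. After filters on genes, UMIs and mitochondrial share and removal of predicted doublets, 12991 Arg cells and 12800 Control cells were kept, with a median of 8294 UMIs in Arg and 10021 UMIs in Control. The libraries share 44 barcodes, 40 of them among kept cells. Ptprc, which encodes CD45, was seen in 89.2% of kept Arg cells and 82.9% of kept Control cells. Cells were clustered without any of the 38 genes, the cell cycle genes of 4 further lists or the replication histones. Genes of the cycle outside these lists were not removed. Clusters were named from marker genes. The level of a gene in a class is its UMIs divided by the UMIs of all genes in that class, on the usual CPM scale. To compare cells at equal depth, each cell was thinned at random to 2000 UMIs, and a cell with at least 3 UMIs of the S genes, or of the G2/M genes, is said to be in the S or the G2/M range.

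Fewer cells of the Arg library were in either range. Of 12133 Arg cells, 7.54% were in the G2/M range, against 20.0% of 11858 Control cells, and 8.82% of Arg cells were in the S range, against 17.0% of Control cells. The summed G2/M level was 851 CPM in Arg and 1807 CPM in Control, a ratio of 0.471 (0.468 to 0.474), and the summed S level was 564 CPM in Arg and 885 CPM in Control, a ratio of 0.637 (0.632 to 0.643). The libraries also differ in which cells they hold. Monocytes, a class with few dividing cells, made up 40.9% of Arg cells and 18.7% of Control cells, while macrophages made up 16.3% of Arg cells and 32.7% of Control cells. When 20 named classes and unnamed clusters were given the same mix in both libraries, the G2/M share was 9.79% in Arg and 16.2% in Control. The S share was then 10.4% in Arg and 14.2% in Control. Clusters inside a named class kept the mix of their library, and they differ between the libraries too. The classes are described one at a time.

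**Figure D1:**
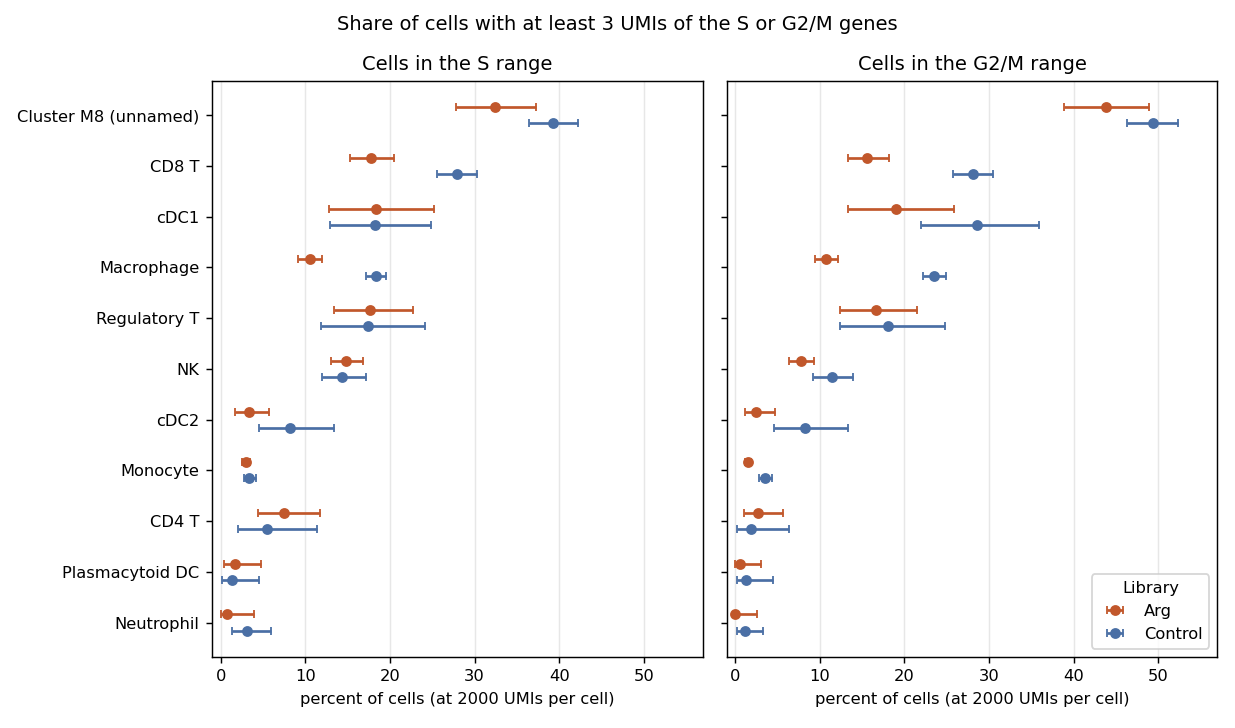
Percent of cells in the S range (left panel) and the G2/M range (right panel) in each cell class, at 2000 UMIs per cell, for Arg (upper point of each pair) and Control (lower point); bars are exact 95% binomial intervals that cover counting error only. CD8 T cells and macrophages show the widest gaps with narrow intervals, while the intervals of regulatory T cells and NK cells overlap in both panels.

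Neutrophils, which should lack dividing cells, give the background of the assay. In them 0 of 139 Arg cells (up to 2.16%, taking 0 to allow up to 3 cells) and 3 of 261 Control cells (1.15%) were in the G2/M range. Their median depth before thinning was 2212 UMIs in Arg and 2167 UMIs in Control, against 7458 UMIs in Arg and 8295 UMIs in Control for CD8 T cells. The summed G2/M level of neutrophils was 103 CPM in Arg and 189 CPM in Control, and that of plasmacytoid dendritic cells, another class with few cells in the range, was 106 CPM in Arg and 294 CPM in Control. In plasmacytoid dendritic cells, 1 Arg cell and 2 Control cells in the range held 63.6% of the G2/M UMIs in Arg and 79.5% in Control. Outside the range the level was 39.4 CPM in Arg and 62.7 CPM in Control in that class, and 88.2 CPM in Arg and 136 CPM in Control in neutrophils. After the neutrophil level of the same library was subtracted, the log2 ratio of the G2/M level was -0.57 in CD8 T cells, -0.99 in macrophages and -0.13 in NK cells, against -0.59, -0.98 and -0.23 as measured.

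CD8 T cells, the killer T cells that recognise antigen on class I molecules, had a lower level of nearly all 38 genes in Arg, and a smaller share of them was in the S or G2/M range. There were 910 CD8 T cells in Arg and 1480 in Control. In the G2/M range were 136 of 871 Arg cells (15.6%, interval 13.3 to 18.2) and 408 of 1453 Control cells (28.1%, interval 25.8 to 30.5). In the S range were 155 Arg cells (17.8%, interval 15.3 to 20.5) and 405 Control cells (27.9%, interval 25.6 to 30.3). The summed G2/M level was 1748 CPM in Arg and 2629 CPM in Control, a ratio of 0.665 (0.652 to 0.678). The summed S level was 901 CPM in Arg and 1192 CPM in Control, a ratio of 0.756 (0.736 to 0.777). Without thinning, 28.2% of Arg cells and 51.2% of Control cells had 3 or more G2/M UMIs. Near the edge of the range, with 2 or 3 G2/M UMIs after thinning, were 7.81% of Arg cells and 9.64% of Control cells.

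Of the 38 genes, 37 had a lower CPM in Arg CD8 T cells, and the median log2 ratio was -0.53, against -0.02 over all 8235 features with at least 10 CPM in either library (ratios are taken after adding 5 CPM to both values). A ratio of 1.5-fold or more was taken as a call by size, since no test is possible. By this rule 14 of the 38 genes were lower and 0 were higher in Arg, against a background of 3.08% lower and 3.13% higher among all features. The 14 were 4 S genes and 10 G2/M genes. Adding 1 CPM in place of 5 gives 19 lower genes, and averaging the CPM of single cells gives 26. For these alternatives the share over all features was not counted.

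Of the 6 subunits of the MCM helicase, which unwinds DNA at the fork, 3 were lower by 1.5-fold in Arg CD8 T cells. Mcm3 had 49.1 CPM in Arg and 79.995 CPM in Control, a log2 ratio of -0.65. Mcm6 had 52.8 CPM in Arg and 85.2 CPM in Control (log2 ratio -0.64), and Mcm5 had 32.1 CPM in Arg and 51.9 CPM in Control (log2 ratio -0.62). Gins2, which joins MCM and Cdc45 in the active helicase, had 14.8 CPM in Arg and 25.4 CPM in Control (log2 ratio -0.62). Mcm2, Mcm7, Cdc45 and Mcm4 did not pass 1.5-fold, with log2 ratios between -0.56 and -0.37. Rrm2, the small subunit of ribonucleotide reductase, had 73.6 CPM in Arg and 97.2 CPM in Control (log2 ratio -0.38), and Tyms, which makes thymidylate, had 44.3 CPM in Arg and 56.6 CPM in Control (log2 ratio -0.32). Pcna, the sliding clamp of DNA polymerase, had 189 CPM in Arg and 217 CPM in Control (log2 ratio -0.19). Slbp, which binds the stem-loop of histone mRNAs, had 151 CPM in Arg and 175 CPM in Control (log2 ratio -0.20). Ccne2, cyclin E2, was the exception, with 14.9 CPM in Arg and 14.04 CPM in Control, a CPM ratio of 1.06 (0.843 to 1.34).

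All 22 G2/M genes had a lower CPM in Arg CD8 T cells. Cenpf, a kinetochore protein, had the lowest ratio of the 38, with 76.3 CPM in Arg and 135 CPM in Control (log2 ratio -0.78). Mki67, which coats mitotic chromosomes and encodes the Ki-67 antigen, had 148 CPM in Arg and 248 CPM in Control (log2 ratio -0.73), and Kif11, a spindle motor, had 60.1 CPM in Arg and 103 CPM in Control (log2 ratio -0.73). Top2a, which untangles DNA, had 223 CPM in Arg and 366 CPM in Control (log2 ratio -0.70). Of the cyclins that bind Cdk1, Ccna2 and Ccnb2 both had a log2 ratio of -0.66, and Ccnb1 had 22.9 CPM in Arg and 31.4 CPM in Control (log2 ratio -0.38). The anaphase activator Cdc20 had 30.6 CPM in Arg and 52.0 CPM in Control (log2 ratio -0.68). The chromosomal passenger genes Birc5, Cdca8 and Aurkb lay between -0.57 and -0.50. Stmn1, which destabilises microtubules and is also made outside mitosis, differed least, with 254 CPM in Arg and 288 CPM in Control (log2 ratio -0.18).

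Cells in the G2/M range held most of the G2/M UMIs of the class, 89.9% in Arg and 92.8% in Control. Since a cell's own G2/M UMIs place it in the range, levels inside and outside it are a description only. Inside, the G2/M level of CD8 T cells was 5754 CPM in Arg and 5859 CPM in Control, and outside it was 245 CPM in Arg and 327 CPM in Control.

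Marker sets of other cell types were counted in the CD8 T class too. The 6 CD8 T markers summed to 4832 CPM in Arg and 4751 CPM in Control. The 6 gamma-delta T markers summed to 27.1 CPM in Arg, with 1 at 0, and 137 CPM in Control, the 7 monocyte markers to 1922 CPM in Arg and 1373 CPM in Control, and the 6 regulatory T markers to 1166 CPM in Arg and 1485 CPM in Control. Tcrg-C2 of the gamma-delta T set was also a leading gene of the CD8 T clusters L7 and L9. Whether other cells or the CD8 T cells themselves made these transcripts was not tested, nor was their part in the result.

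The libraries fill different clusters of CD8 T cells, and these clusters differ in their share of cells in the G2/M range. Cluster L9 was 95.7% in the G2/M range in Arg and 96.1% in Control, and held 10.55% of the class in Arg and 20.7% in Control. Cluster L7, led by Pdcd1, Tox and Cxcr6, held 5.93% of the class in Arg (54 cells) and 60.3% in Control (893 cells), with 15.2% of its Arg cells and 7.96% of its Control cells in the range. Cluster L6, led by Serpine2 and Gzme, held 43.4% of the class in Arg and 5.95% in Control, with 5.06% of its Arg cells and 3.41% of its Control cells in the range. Cluster L5, led by Gzmk and Lef1, held 40.1% in Arg and 13.04% in Control, and was the cluster with a wide gap inside it. There 5.93% of Arg cells (interval 3.66 to 9.02) and 23.2% of Control cells (interval 17.3 to 30.0) were in the G2/M range, and all 38 genes had a lower CPM in Arg, with a median log2 ratio of -0.93. In L5, Rrm2 had 35.3 CPM in Arg and 103 CPM in Control, and Birc5 had 72.0 CPM in Arg and 191 CPM in Control. In L9 the median over the 38 genes was -0.03, and in L7 it was 0.23 over 32 genes. With 1 common mix of these clusters, the G2/M level ratio was 0.978 and 0 genes were lower by 1.5-fold, but L9 is then held to the same size in both libraries. A coarser clustering (resolution 0.5) gave 2 such genes. Under these settings the share over all features was not counted.

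**Figure D2:**
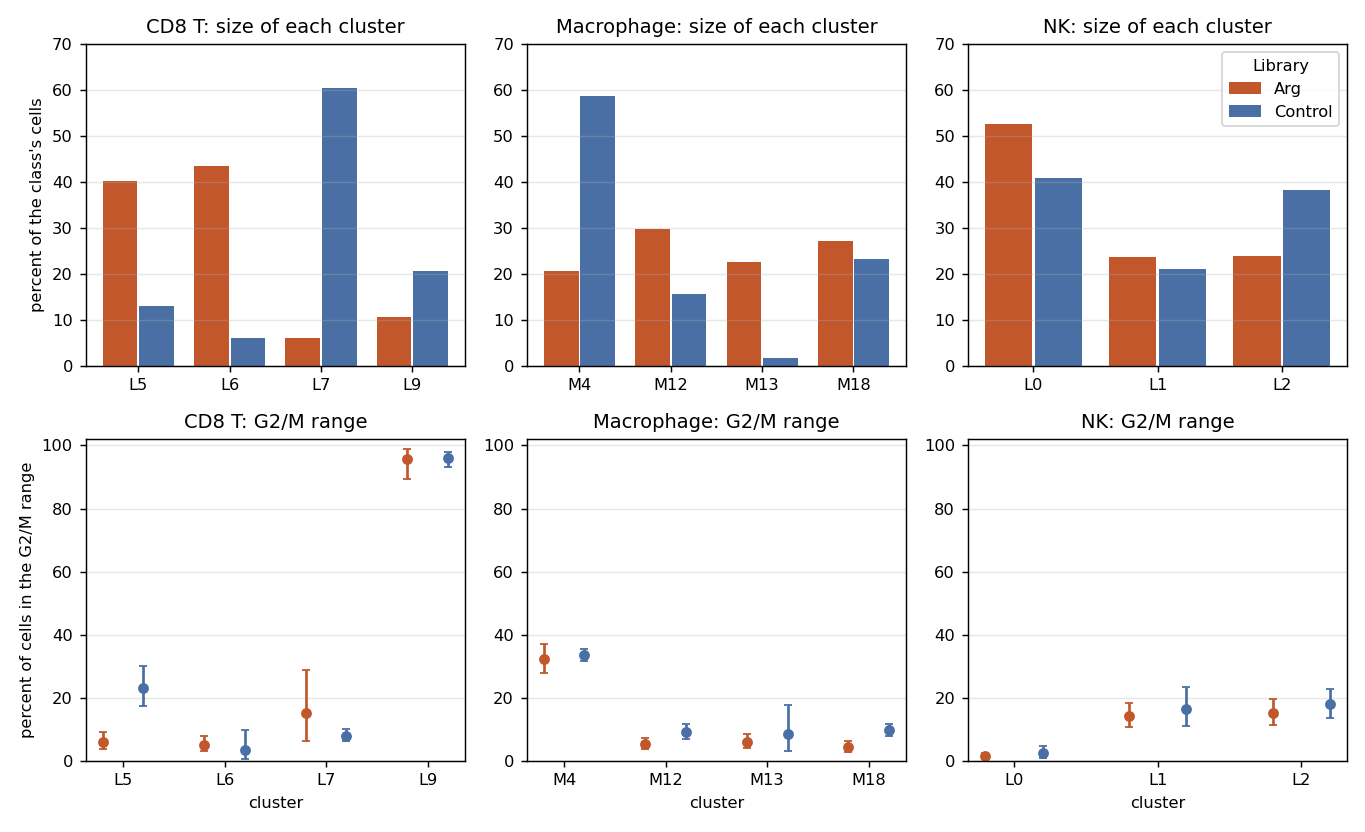
Upper row: percent of the cells of a class that each cluster holds, for Arg (left bar) and Control (right bar). Lower row: percent of the cells of that cluster in the G2/M range, with exact 95% binomial intervals. For CD8 T cells, macrophages and NK cells, clusters with at least 50 cells in both libraries are drawn. L9 is near the top in both libraries but fills a smaller part of the class in Arg, M4 has 32.4% of cells in the range in Arg and 33.4% in Control, and L5 has a gap within the cluster.

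Macrophages, which take up cell debris and are marked here by complement C1q genes and Apoe, had a lower level of all measured members of both gene groups in Arg. There were 2123 in Arg and 4191 in Control. In the G2/M range were 213 of 1982 Arg cells (10.7%, interval 9.42 to 12.2) and 947 of 4028 Control cells (23.5%, interval 22.2 to 24.9). The S range held 208 Arg cells (10.49%) and 737 Control cells (18.3%). The summed G2/M level was 803 CPM in Arg and 1583 CPM in Control, a ratio of 0.507 (0.499 to 0.515), and the summed S level was 549 CPM in Arg and 779 CPM in Control, a ratio of 0.705 (0.692 to 0.719). The 37 genes with at least 10 CPM in either library all had a lower CPM in Arg, with a median log2 ratio of -0.76, against 0.00 over all 8004 features. Lower by at least 1.5-fold were 27 genes, 6 of 15 S genes and 21 of 22 G2/M genes, and 0 were higher, against a background of 3.49% lower and 4.37% higher.

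Cdc20 had the lowest ratio, with 14.5 CPM in Arg macrophages and 37.8 CPM in Control (log2 ratio -1.13). Ube2c, the ubiquitin-conjugating enzyme that works with Cdc20 at the anaphase-promoting complex, had 78.0 CPM in Arg and 173 CPM in Control (log2 ratio -1.10). Birc5 had 88.8 CPM in Arg and 188 CPM in Control (log2 ratio -1.04), Ccnb2 had 24.03 CPM in Arg and 54.0 CPM in Control (log2 ratio -1.02), and Mki67 had 52.9 CPM in Arg and 111 CPM in Control (log2 ratio -1.01). The kinases that drive mitosis were closer together, with log2 ratios of -0.88 for Cdk1, -0.86 for Aurkb, -0.73 for Aurka, -0.68 for Plk1 and -0.62 for Bub1. Among the S genes, Rrm2 had 26.8 CPM in Arg and 54.9 CPM in Control (log2 ratio -0.91), and Tyms had 20.6 CPM in Arg and 38.2 CPM in Control (log2 ratio -0.76). Uhrf1, which reads newly copied methylated DNA, had 21.1 CPM in Arg and 38.3 CPM in Control (log2 ratio -0.73). Pcna differed least, with 187 CPM in Arg and 206 CPM in Control (log2 ratio -0.13). Stmn1 was the only G2/M gene short of 1.5-fold, with 105 CPM in Arg and 156 CPM in Control (log2 ratio -0.55).

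The cluster that holds most dividing macrophages, M4, led by Ch25h, Cx3cr1 and C1q genes, made up 20.5% of Arg macrophages and 58.8% of Control macrophages. Within M4 the share in the G2/M range was 32.4% in Arg (interval 27.8 to 37.1) and 33.4% in Control (interval 31.5 to 35.3), and the G2/M level was 1770 CPM in Arg and 2037 CPM in Control. The other clusters had fewer cells in the range in both libraries. M12, led by Mmp13 and Mmp12, had 5.24% of Arg cells and 8.99% of Control cells in it, and M13, led by Nos2, had 6.03% of Arg cells and 8.57% of Control cells. M18, led by Lyve1 and Retnla, had 4.25% of Arg cells (interval 2.68 to 6.36) and 9.67% of Control cells (interval 7.84 to 11.8). The G2/M level was lower in Arg within all 4 clusters drawn, with ratios of 0.869 in M4, 0.824 in M12, 0.701 in M13 and 0.515 in M18. With 1 common mix of the clusters, the ratio of the class was 0.812 and 1 gene was lower by 1.5-fold. Keeping cell cycle genes in the clustering gave 2 such genes, and resolution 0.5 gave 9. Under these settings the share over all features was not counted. The 7 macrophage markers summed to 15631 CPM in Arg and 15305 CPM in Control. Marker sets of other cell types were also counted in the class. The 7 neutrophil markers summed to 183 CPM in Arg and 91.7 CPM in Control, the 5 erythroid markers to 0.1996 CPM in Arg, with 1 at 0, and 139 CPM in Control, and the 6 CD8 T markers to 20.0 CPM in Arg and 22.4 CPM in Control. The 5 basophil markers summed to 2944 CPM in Arg and 1791 CPM in Control, with 1 of them at 0 in both. Whether other cells or the macrophages themselves made these transcripts was not tested, nor was their part in the result.

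**Figure D3:**
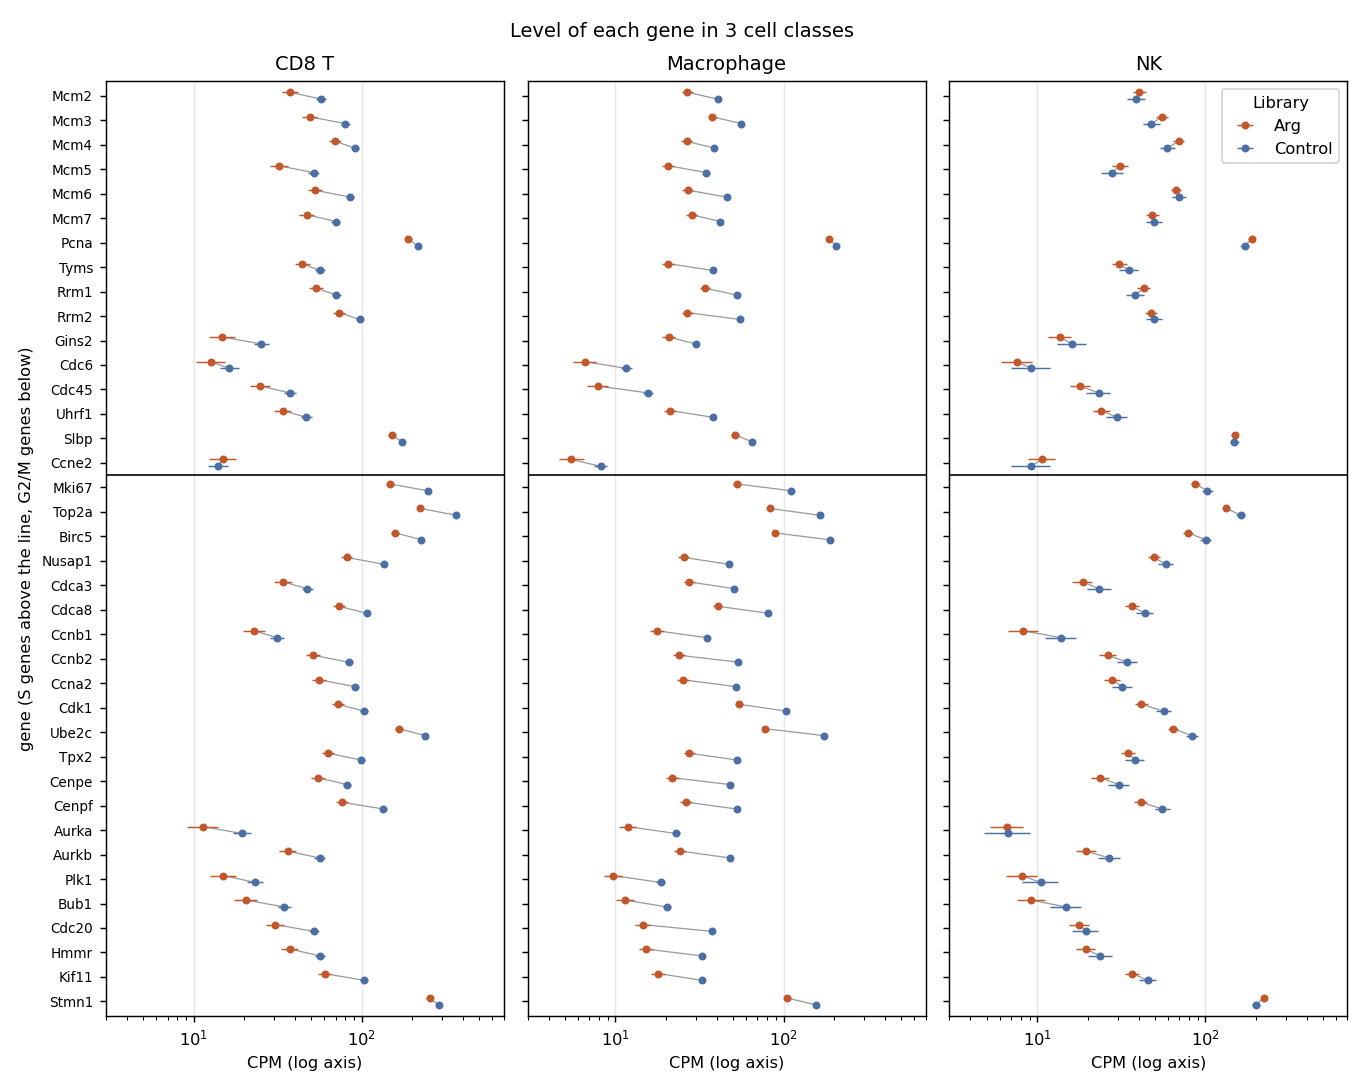
CPM of each of the 38 genes on a log axis in CD8 T cells, macrophages and NK cells, for Arg (upper point) and Control (lower point), with exact 95% Poisson intervals that cover counting error only; the black line separates S genes (above) from G2/M genes (below). In macrophages every Arg point lies left of its Control point, while in NK cells the S genes lie on both sides.

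NK cells, which kill without antigen receptors, had close S levels in the libraries and a lower G2/M level in Arg. There were 1421 in Arg and 749 in Control. In the S range were 205 of 1384 Arg cells (14.8%) and 106 of 737 Control cells (14.4%) in the draw used, and 14.7% of Arg cells and 15.5% of Control cells were expected over all draws. The summed S level was 844 CPM in Arg and 824 CPM in Control, a ratio of 1.03 (0.991 to 1.06). Counted in the G2/M range were 107 Arg cells (7.73%, interval 6.38 to 9.27) and 84 Control cells (11.4%, interval 9.19 to 13.9), and these intervals overlap. The summed G2/M level was 1010 CPM in Arg and 1181 CPM in Control, a ratio of 0.855 (0.830 to 0.880). Lower by 1.5-fold were 0 of 36 genes, and higher 0 of 36, against a background of 0.976% lower and 0.915% higher. Of the 21 measured G2/M genes, 20 had a lower CPM in Arg, with a median log2 ratio of -0.28, against 0.01 over all features. Of the 15 measured S genes, 7 had a lower CPM in Arg.

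Ccnb1, the cyclin that opens mitosis, was farthest apart in NK cells, with 8.26 CPM in Arg and 13.8 CPM in Control (log2 ratio -0.50), followed by the checkpoint kinase Bub1 with 9.21 CPM in Arg and 14.8 CPM in Control (log2 ratio -0.47). Cdk1 had 41.5 CPM in Arg and 56.5 CPM in Control (log2 ratio -0.40). Mcm4 was higher in Arg, with 69.2 CPM against 59.5 CPM in Control (log2 ratio 0.20), as was Stmn1, with 222 CPM against 200 CPM in Control (log2 ratio 0.15). The cluster with the fewest dividing cells, L0, held 52.6% of Arg and 40.9% of Control NK cells. L2, led by the granzymes Gzmc, Gzmd and Gzmf, held 23.8% of Arg and 38.2% of Control NK cells, with 15.2% of Arg cells and 17.9% of Control cells in the G2/M range and a level ratio of 1.03 (0.994 to 1.07). The level ratio was 0.503 (0.452 to 0.560) in L0 and 0.787 (0.748 to 0.828) in L1, led by Xcl1 and Rora. With 1 library per diet, whether the ratios of CD8 T cells, macrophages and NK cells differ was not tested.

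In the myeloid line, monocytes had few cells in the range and a lower G2/M level in Arg. The G2/M range held 78 of 5177 Arg monocytes (1.51%) and 82 of 2335 Control monocytes (3.51%). These cells held 62.4% of the G2/M UMIs in Arg and 69.4% in Control. Outside the range the G2/M level of monocytes was 78.0 CPM in Arg and 127 CPM in Control. In neutrophils it was 88.2 CPM in Arg and 136 CPM in Control. The summed G2/M level was 201 CPM in Arg and 389 CPM in Control, a ratio of 0.517 (0.503 to 0.532), and 13 of 27 measured genes were lower by 1.5-fold, against a background of 1.71%. The ratio of the summed G2/M level in neutrophils, the background class, was 0.544 (0.404 to 0.724). Ube2c had 17.6 CPM in Arg monocytes and 41.6 CPM in Control (log2 ratio -1.04). The S level was 297 CPM in Arg and 329 CPM in Control, with the lower value in Control when doublets are kept or at resolution 2. Among the monocyte clusters, M2, led by the interferon-induced genes Rsad2 and Ifit2, had 0.932% of Arg cells (interval 0.255 to 2.37) and 11.9% of Control cells (interval 8.34 to 16.3) in the G2/M range, and M3 had 0.848% of Arg cells and 0.688% of Control cells. Where the line between monocytes and macrophages is drawn sets part of these values. Taken as 1 class, they had 4.06% of Arg cells and 16.2% of Control cells in the G2/M range, and 33 of 36 measured genes were lower by 1.5-fold, against a background of 4.93%. With 1 common mix of clusters the G2/M level ratio of the joined class was 0.755, against 0.319 as measured, and 1 gene was lower. At that mix the share over all features was not counted.

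Dendritic cells of type 1 (cDC1), which present antigen to CD8 T cells, had a lower G2/M level in Arg, with 12 of 22 G2/M genes and 0 of 16 S genes lower by 1.5-fold, against a background of 3.99%. Whether the gene groups differ was not tested, and 12 of the 16 S genes also had a lower CPM in Arg. Their S level was 807 CPM in Arg and 861 CPM in Control, a ratio of 0.937 (0.887 to 0.989), with 18.4% of Arg cells and 18.3% of Control cells in the S range in the draw used. Over all draws the expected S share was 16.9% in Arg and 21.3% in Control. Their G2/M level was 1261 CPM in Arg and 1833 CPM in Control, a ratio of 0.688 (0.660 to 0.716). In the range were 31 of 163 Arg cells (19.0%) and 50 of 175 Control cells (28.6%), with overlapping intervals. These cells held 85.2% of the class's G2/M UMIs in Arg and 90.0% in Control. Cenpf had 30.4 CPM in Arg cDC1 and 76.9 CPM in Control (log2 ratio -1.21), Aurka had 13.3 CPM in Arg and 36.3 CPM in Control (log2 ratio -1.17), and Ccnb1 had 18.7 CPM in Arg and 43.8 CPM in Control (log2 ratio -1.04). Among the S genes, Rrm2 had 72.8 CPM in Arg and 72.0 CPM in Control. These values rest on 172 Arg and 180 Control cells.

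Type 2 dendritic cells (cDC2), which present to CD4 T cells, differed in both groups, with 26 of 34 measured genes lower by 1.5-fold, against a background of 5.06%. Their G2/M level was 275 CPM in Arg and 750 CPM in Control. In the range were 9 of 363 Arg cells (2.48%, interval 1.14 to 4.65) and 14 of 171 Control cells (8.19%, interval 4.55 to 13.4). These intervals overlap. Most G2/M UMIs of the class came from these few cells, which held 72.2% in Arg and 82.7% in Control. Top2a had 27.4 CPM in Arg cDC2 and 103 CPM in Control (log2 ratio -1.74). In plasmacytoid dendritic cells 8 of 17 measured genes were lower, against a background of 3.98%, but most of the class's G2/M UMIs came from 1 of 182 Arg cells and 2 of 158 Control cells, those in the G2/M range.

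Regulatory T cells, a Foxp3-driven class that holds immune responses back, had close S levels in the libraries and a lower G2/M level in Arg. Their S level was 1028 CPM in Arg and 1033 CPM in Control, a ratio of 0.996 (0.933 to 1.06). The G2/M range held 46 of 277 Arg cells (16.6%, interval 12.4 to 21.5) and 29 of 161 Control cells (18.0%, interval 12.4 to 24.8). These intervals overlap. The G2/M level was 1803 CPM in Arg and 2027 CPM in Control, a ratio of 0.890 (0.849 to 0.933). Cells in the range held 91.2% of the G2/M UMIs in Arg and 91.7% in Control, so the level rests on few cells. Of the 22 G2/M genes, 19 had a lower CPM in Arg, with a median log2 ratio of -0.21, against -0.03 over all features. Hmmr, a spindle-associated protein, was the 1 gene lower by 1.5-fold, with 31.1 CPM in Arg and 55.1 CPM in Control, against a background of 4.38%. Stmn1 had 242 CPM in Arg regulatory T cells and 175 CPM in Control (log2 ratio 0.46).

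CD4 T cells, helper cells without Foxp3 here, gave level and share in opposite directions in the draw used. Their G2/M level was 419 CPM in Arg and 598 CPM in Control, while 6 of 226 Arg cells (2.65%) and 2 of 111 Control cells (1.80%) were in the G2/M range. Over all draws the expected G2/M share was 3.43% in Arg and 3.60% in Control. No order is read from these values, since the share turned with the draw and the level with the clustering. Mast cells, which numbered 177 in Arg and 56 in Control, had a G2/M level of 1322 CPM in Arg and 2015 CPM in Control, a ratio of 0.656 (0.589 to 0.732). Most of these UMIs came from few cells, as 29 Arg cells and 11 Control cells in the range held 93.3% and 93.4% of them. The shares in the range were 23.02% in Arg and 31.4% in Control, with overlapping intervals. Fibroblasts had 476 CPM in Arg and 1008 CPM in Control, from 84 Arg and 357 Control cells. Of their G2/M UMIs, 3 Arg cells in the range held 76.6% and 34 Control cells held 81.7%.

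**Figure D4:**
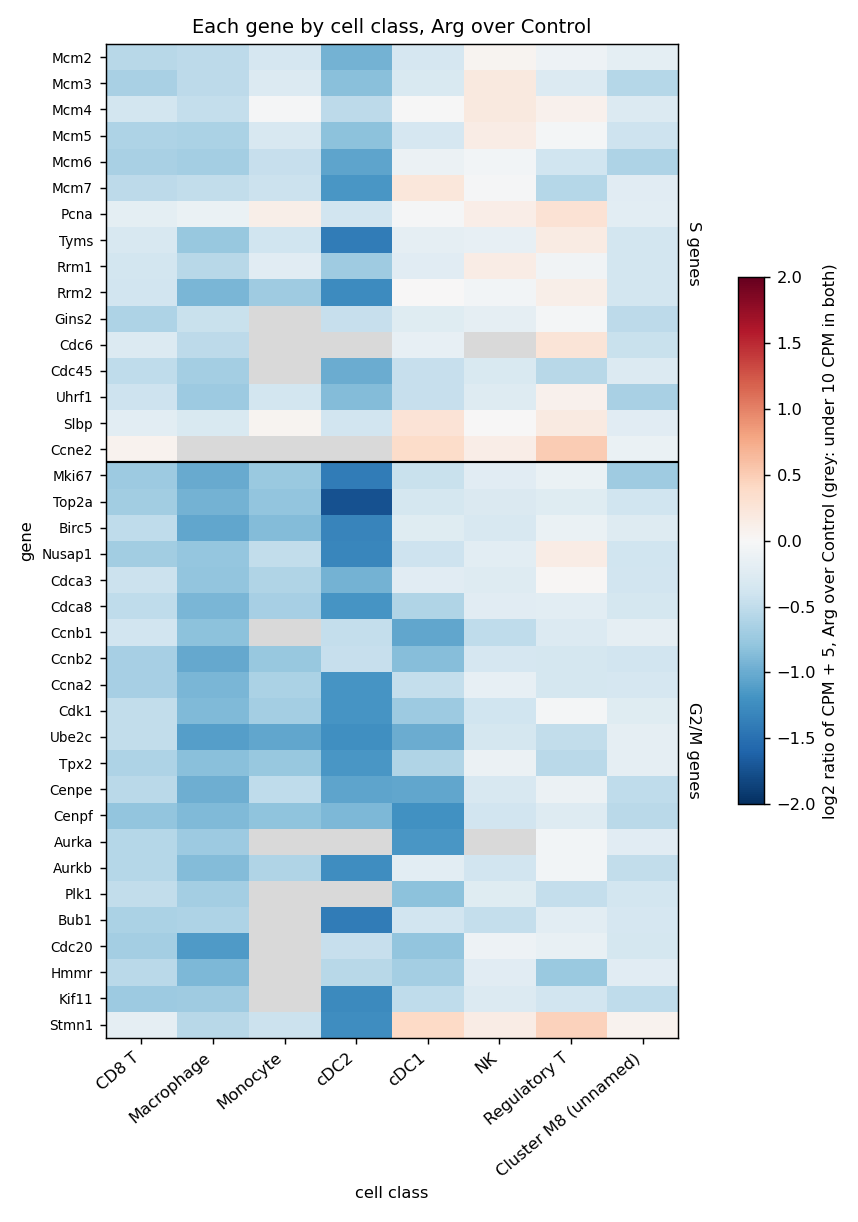
Log2 ratio of each of the 38 genes, Arg over Control after adding 5 CPM, in 8 cell classes or clusters; blue is lower in Arg, red is higher in Arg, and grey marks genes under 10 CPM in both libraries. The G2/M block is blue in nearly all columns, from -1.74 for Top2a in cDC2 to values near 0 in NK and regulatory T cells, and Pcna, Slbp, Ccne2 and Stmn1 are the palest or reddest genes in several columns.

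Cluster M8 had a higher G2/M level than any named class in its library and was left unnamed, because no marker set passed the naming rule. It held 403 Arg and 1127 Control cells with a median of 39687 UMIs in Arg and 37853 UMIs in Control. Ptprc was seen in 35.4% of its cells, although the cells were enriched for CD45, and Hmga2 in 97.8%. Of the 7 epithelial markers, Krt18 was seen in 24.1% of its cells and the others in at most 1.503%. The G2/M range held 43.9% of Arg cells (interval 38.9 to 48.9) and 49.3% of Control cells (interval 46.4 to 52.3). The G2/M level was 2492 CPM in Arg and 3059 CPM in Control, a ratio of 0.815 (0.806 to 0.824), and the S level 1062 CPM in Arg and 1353 CPM in Control, a ratio of 0.785 (0.771 to 0.798). Of the 38 genes, 3 were lower by 1.5-fold (Mki67, Uhrf1 and Mcm6), against a background of 2.35%. Mki67 had 64.4 CPM in Arg M8 cells and 109 CPM in Control, while Stmn1 had 297 CPM in Arg and 282 CPM in Control.

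Within each group, the genes differ in how closely they keep to cells in the range of that group. For each gene, cells were split by the other genes of its group, so that the gene itself did not place a cell in the range. This is a description of genes seen together in the same cells, with no test. In CD8 T cells, the share of UMIs found in range cells spanned 80.6% (Stmn1) to 97.0% (Hmmr) for the G2/M genes in Arg, and 80.2% (Stmn1) to 98.3% (Hmmr) in Control. For the S genes it spanned 39.6% (Slbp) to 82.5% (Cdc6) in Arg, and 50.4% (Slbp) to 81.5% (Cdc6) in Control. Pcna had 45.6% of its UMIs in range cells in Arg CD8 T cells and 52.2% in Control, with 129 CPM in Arg and 151 CPM in Control in the cells outside. In macrophages, Pcna had 25.4% of its UMIs in range cells in Arg and 37.5% in Control, and its CPM outside the range was 154 in both libraries. Ccna2, a G2/M gene, had 2.88 CPM outside the G2/M range in Arg CD8 T cells and 4.89 CPM in Control. Slbp and Pcna had the lowest shares of the S genes in both libraries in CD8 T cells and macrophages, and Stmn1 the lowest of the G2/M genes. S genes were split by the S range and G2/M genes by the G2/M range, so shares are not compared between the groups.

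Genes of the cycle outside the 38 were counted on 4 further lists. Of 28 other replication genes, such as Pola1 of the DNA polymerase that starts strands, 8 were lower by 1.5-fold and 0 higher in CD8 T cells, 10 of 23 measured were lower and 0 higher in macrophages, and 0 of 25 were either in NK cells. Among all features, 3.08% were lower in CD8 T cells, 3.49% in macrophages and 0.976% in NK cells. Pola1 had 70.7 CPM in Arg CD8 T cells and 127 CPM in Control (log2 ratio -0.80), and Tk1, a thymidine kinase, had 18.1 CPM in Arg macrophages and 39.7 CPM in Control (log2 ratio -0.95). Of 36 other mitosis genes, 5 of 34 measured were lower in CD8 T cells, 25 of 31 in macrophages and 0 of 28 in NK cells, and none of those measured in the 3 classes was higher, against the same shares of all features. The median log2 ratio of the mitosis list was -0.48 in CD8 T cells, -0.67 in macrophages and -0.17 in NK cells, against -0.02, 0.00 and 0.01 over all features. Hmgb2, a chromatin protein, had 349 CPM in Arg macrophages and 702 CPM in Control (log2 ratio -0.999).

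Among 11 genes that start the cycle, Myc, a growth factor-induced transcription factor, had 34.7 CPM in Arg CD8 T cells and 75.4 CPM in Control (log2 ratio -1.02). Cdk6, the G1 kinase, had 365 CPM in Arg CD8 T cells and 592 CPM in Control (log2 ratio -0.69), while Ccnd3, one of its cyclins, had 133 CPM in Arg and 90.3 CPM in Control (log2 ratio 0.53). In macrophages Ccnd2 had 29.6 CPM in Arg and 75.2 CPM in Control (log2 ratio -1.21), and Ccnd1 had 261 CPM in Arg and 455 CPM in Control (log2 ratio -0.79). In all, 2 of 11 such genes were lower by 1.5-fold in CD8 T cells, 4 of 11 in macrophages and 1 of 9 in NK cells, and 0 were higher in each, beside 3.08%, 3.49% and 0.976% of all features lower in these classes.

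Of 14 brakes of the cycle, 12 were measured in CD8 T cells and none passed 1.5-fold, beside 3.08% lower and 3.13% higher of all features. Cdkn1a, the p21 inhibitor, had 79.5 CPM in Arg CD8 T cells and 53.3 CPM in Control (log2 ratio 0.54), and Cdkn2c, an inhibitor of Cdk6, had 44.2 CPM in Arg and 56.8 CPM in Control (log2 ratio -0.33). In macrophages, 2 of 12 were lower and 0 higher, beside 3.49% lower and 4.37% higher of all features. They were Cdkn2a, with 3.71 CPM in Arg and 11.5 CPM in Control (log2 ratio -0.92), and Cdkn2c, with 23.2 CPM in Arg and 46.5 CPM in Control (log2 ratio -0.87). Btg1, which slows growth, had 802 CPM in Arg macrophages and 554 CPM in Control (log2 ratio 0.53). In NK cells 0 of 11 passed 1.5-fold, beside 0.976% lower and 0.915% higher of all features. The list's median was -0.04 in NK cells, against 0.03 in CD8 T cells and -0.10 in macrophages.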

How the data were processed

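The deposited matrices hold raw UMI counts per gene and cell barcode, not normalized by the authors, written by Cell Ranger 7.0.1 per the file headers. Version 2.2.2 of that tool and the build GRCm38 stand in the submitters' processing notes. The use of intron reads is not stated by headers or labels. Kept barcodes had 200 or more genes, 500 or more UMIs and no more than 10% of UMIs from mitochondrial genes, and Scrublet calls (expected rate 8%; 6.37% of Arg and 5.09% of Control) were removed. Cells of both libraries were clustered with scanpy 1.11.5 and leidenalg 0.10.2 (2000 variable genes without the 38 genes, other cell cycle lists and replication histones; 30 components, 20 neighbours, resolution 1), and T and NK clusters again by themselves. A cluster took the marker set of 19 with the highest mean log2 fold of at least 0.5 and 3 markers detected in 20% of its cells, a rule set after the clusters were seen. Classes under 100 cells in either library gave no counts of genes. Intervals are exact Poisson, exact conditional for ratios, and Clopper-Pearson for shares, and cover counting error only. Intervals of levels and level ratios treat UMIs as independent, so they leave out error from which cells were sampled. No test was run, since each diet has 1 library. All 38 genes were to be described, plus at most 4 genes of each other list per class, those with the largest absolute log2 ratio. The genes and lists were chosen with earlier results of these data known. TMM factors came from edgeR 4.0.16. The scripts were tested on simulated data.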

Additional observations from a re-analysis of the deposited data

Results flagged for a closer look

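Cells of several clusters outside the named classes also carried these genes above the neutrophil level. Shares are of cells with at least 2000 UMIs, which in M1 are 65 of 355 Arg cells and 133 of 552 Control cells. In the G2/M range were 11.1% of Arg and 12.3% of Control cells of cluster L8 (led by Gpm6b, Ptprk and Crtam), 15.3% of Arg and 23.2% of Control cells of L10 (led by Gzmd, Gzme and Il2ra), 23.1% of Arg and 23.3% of Control cells of M1 (a median of 826 UMIs), 33.3% of Arg and 37.1% of Control cells of M9 (led by Mecom and Zfpm2), and 43.9% of Arg and 49.3% of Control cells of M8. Cluster L13 had 49.6% of 115 Control cells in the range, and the Arg library held 1 of its cells. Unnamed cluster L11 had values near those of neutrophils, with 0 of 99 Arg cells and 2 of 107 Control cells (1.87%) in the range and a G2/M level of 109 CPM in Arg and 203 CPM in Control.

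Among unnamed clusters with at least 100 cells in both libraries, the G2/M level ratio of Arg over Control was above 1 in L8 (1.09) and M1 (1.13), while it was below 1 in M8 and L11 and in all named classes of that size. Clusters inside named classes also had ratios above 1, among them L2 (1.03), L6 (1.11), L7 (1.25) and L9 (1.04). L8 scored highest on the CD8 T markers (mean log2 fold 0.81, 6 markers detected) and was left unnamed because of its leading genes. The difference from the other classes was not tested.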

How the results depend on the processing

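Each diet has 1 library, so these settings show how values move with processing, not how diets vary. No paired analysis was possible because each group has 1 sample, and no test was made. Values are log2 ratios of Arg over Control. Counts of lower genes under these settings have no share over all features beside them, since it was not counted. The measured values were -0.40 for the S level, -0.59 for the G2/M level and -0.85 for the G2/M share in CD8 T cells, then -0.50, -0.98 and -1.13 in macrophages. In NK cells they were 0.04, -0.23 and -0.56.

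The G2/M level and share stayed below 0 in these 3 classes under all settings run, from -0.81 to -0.033 (level) in CD8 T cells, -1.20 to -0.30 in macrophages and -0.38 to -0.13 in NK cells. With 1 common mix of clusters the CD8 T values were -0.17 (S level), -0.033 (G2/M level), -0.10 (G2/M share) and 0 genes lower. The macrophage values were -0.071, -0.30, -0.24 and 1 gene, and the NK levels 0.089 (S) and -0.17 (G2/M). At resolution 0.5, CD8 T cells gave -0.30, -0.45, -0.51 and 2 genes, and macrophages -0.22, -0.58, -0.68 and 9 genes. At resolution 2 the S level was -0.45 in CD8 T cells and -0.47 in macrophages. With cell cycle genes kept in the clustering the G2/M level was -0.56 in CD8 T cells and -0.38 in NK cells, with 1 NK gene lower, and macrophages gave -0.29, -0.46, -0.57 and 2 genes. The mean of single-cell CPM gave -0.47, -0.81 and 26 genes in CD8 T cells, a G2/M level of -1.15 in macrophages, and -0.074, -0.36 and 1 gene in NK cells.

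The stricter cell filter gave a G2/M level of -0.55 in CD8 T cells, -0.61, -1.20 and -1.47 in macrophages, and levels of -0.045 (S) and -0.30 (G2/M) in NK cells. No cell filter gave -0.33, -0.76 and -0.80 in macrophages. Without Stmn1 the G2/M level was -0.65, -1.03 and -0.32 in CD8 T cells, macrophages and NK cells. TMM gave -0.53 and -1.01 in macrophages, kept doublets gave a G2/M level of -1.02, and no thinning a G2/M share of -0.93. Adding 1 CPM gave 2 lower NK genes. Chosen after seeing the data, subtraction of the neutrophil level gave S levels of -0.47, -0.69 and 0.11 in CD8 T cells, macrophages and NK cells and a G2/M level of -0.13 in NK cells.

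Among smaller classes, the S level of monocytes turned to 0.017 with doublets kept and 0.054 at resolution 2. The G2/M level of CD4 T cells, -0.51 as measured, turned to 0.13 at resolution 2 and 0.87 with cell cycle genes kept. The cause was not tested. Cells under 2000 UMIs, 858 in Arg and 942 in Control, have no share, and 20.9% of Arg and 22.4% of Control CD8 T cells sit at 2 or 3 S UMIs, so a second random draw moved the log2 ratio of the S share from -0.65 to -0.95, while its expected value over all draws was -0.73.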
